A study of Mus musculus with 11 samples.

Results

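Heat shock under control siRNA was described in the B16-OVA line, melanoma cells of C57BL/6J mice that carry the model antigen ovalbumin. The comparison used 5 of the 11 RNA sequencing libraries of the series: 3 unheated ones (replicates 1, 2 and 3) and 2 heated ones (replicates 1 and 3). Of 54686 entries in the gene table, 11944 reached at least 1 FPKM in at least 2 of these 5 libraries and were tested. FPKM counts the sequenced fragments of a gene per kilobase of its length and per M mapped fragments (M, the prefix mega).

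All 5 libraries came from cells given a control siRNA, so both groups share the transfection. Heat was applied 48 h after transfection, at 45 °C for 1 h, and was followed by 6 h at 37 °C before harvest. The unheated cells carry the same control siRNA and are labelled as untreated. The series asks how YAP and TAZ shape the heat shock transcriptome, and 6 further libraries (3 unheated, 3 heated at the same temperature and times) came from cells given pooled siRNAs that target YAP and TAZ (YAP/TAZ siRNA). They entered the fit and are used here only to show where the control response differs. Everything rests on 1 cell line and on 1 time of recovery. The labels do not tell whether replicates are independent cultures, and the p-values measure only how far these samples spread, possibly for technical reasons. Whether a lower value means fewer cells that hold the transcript or less of it in each cell cannot be told apart in such bulk RNA.

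Heat unfolds proteins, and the freed transcription factor HSF1 then drives chaperone genes through heat shock elements, runs of the letters GAA and TTC in alternating direction with short spacers. Chaperones of the Hsp70, Hsp90, Hsp40 and small heat shock protein families refold or hold damaged proteins, BAG and J-domain proteins steer Hsp70, and ubiquitin genes serve the disposal of what cannot be refolded. Severe heat also halts much ordinary transcription and translation, stalls the cell cycle, and engages stress kinases, p53 and the integrated stress response, so the hours of recovery mix the original chaperone wave with later programmes.

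The sequences just before the start sites of 4 of the genes below are given first because they carry the letters searched for later, and these genes rose with heat. Sequences are from RefSeq on GRCm38.p6, 5′ to 3′ along the gene. Capitals mark 2-block heat shock letters (GAANNTTC or TTCNNGAA), except in Btg2, where they mark the cAMP response element TGACGTCA. Hspb1 has 2 such matches between bases -117 and -90 from its start site (chr5:135887669-135887918, plus strand), and Hspa1a (chr17:34972157-34972406, minus strand) and Hspa1b (chr17:34959239-34959488, minus strand) have 1 at -104 to -97. The element of Btg2 lies at -166 to -159 (chr1:134079156-134079405, minus strand).
Hspb1: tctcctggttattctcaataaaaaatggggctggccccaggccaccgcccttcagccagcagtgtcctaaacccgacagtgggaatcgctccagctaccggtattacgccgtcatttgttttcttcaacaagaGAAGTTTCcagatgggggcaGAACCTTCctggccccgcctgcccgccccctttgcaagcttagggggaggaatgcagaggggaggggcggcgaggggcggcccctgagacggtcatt
Hspa1a: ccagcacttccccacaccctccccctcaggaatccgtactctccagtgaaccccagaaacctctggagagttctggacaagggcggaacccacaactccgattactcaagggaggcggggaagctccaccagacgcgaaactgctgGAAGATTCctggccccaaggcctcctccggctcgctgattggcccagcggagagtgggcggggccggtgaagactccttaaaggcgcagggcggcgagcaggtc
Hspa1b: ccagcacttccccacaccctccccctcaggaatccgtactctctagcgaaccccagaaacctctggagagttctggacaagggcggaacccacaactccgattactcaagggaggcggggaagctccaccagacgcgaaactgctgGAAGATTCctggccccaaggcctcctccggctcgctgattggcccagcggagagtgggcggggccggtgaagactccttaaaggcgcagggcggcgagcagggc
Btg2: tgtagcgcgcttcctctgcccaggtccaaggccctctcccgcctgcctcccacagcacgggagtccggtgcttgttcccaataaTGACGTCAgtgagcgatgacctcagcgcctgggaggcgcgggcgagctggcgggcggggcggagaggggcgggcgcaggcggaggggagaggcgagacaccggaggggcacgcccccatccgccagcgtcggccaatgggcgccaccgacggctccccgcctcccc
The Hspa1a and Hspa1b windows match at 247 of 250 bases, and the transcripts of these neighbours are also nearly identical. Fragments divided between them are uncertain, and their sum is given beside each. A longer element of 4 alternating blocks lies before the RefSeq starts of the divergent genes Hspe1 and Hspd1, at -89 to -72 from the start of Hspe1 (chr1:55088059-55088076, plus strand).
Hspe1: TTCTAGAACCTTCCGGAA

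The libraries held 38.2 to 44.0 M fragments without heat and 34.2 and 36.6 M after heat, inferred from the commonest low values and annotated transcript lengths. Log2 values correlated across genes at 0.982 to 0.984 within the groups and at 0.926 to 0.932 between them, a description over 11944 genes that are not independent. The melanocyte markers Tyr, Tyrp1, Dct, Pmel, Mlana, Mitf and Sox10 summed to 6996 to 7607 FPKM without heat and 6261 to 6508 FPKM after heat, and all 7 were detected in every library. Markers of other cells stayed low: 7 endothelial markers summed to 0.155 to 0.293 FPKM without heat and 1.28 to 1.63 FPKM after it, 9 lymphocyte markers to 0.125 to 0.317 and 1.91 to 1.92 FPKM, 10 macrophage markers to 2.35 to 2.64 and 6.35 to 6.77 FPKM, 9 fibroblast markers to 2.88 to 3.16 and 1.5 to 1.52 FPKM, and 7 keratinocyte markers to at most 0.0807 FPKM. The markers listed at 0 in all 5 libraries were Cdh5 and Emcn (endothelial), Ptprc and Aif1 (macrophage), Cd8a, Ms4a1, Nkg7 and Gzmb (lymphocyte), Dcn (fibroblast) and Krt1, Krt10, Trp63, Dsg3 and Ivl (keratinocyte). Single markers made most of the rises: Pecam1 was at 0.0541, 0.0274 and 0.00348 FPKM and then at 1.08 and 0.918 FPKM, Cd79a at 0.306, 0.254 and 0.125 and then at 1.87 and 1.82 FPKM, and Cd68 at 0.593, 0.588 and 0.974 and then at 4.83 and 3.63 FPKM. The part of the summed rise in the results was not tested.

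With FPKM as deposited, 1529 genes were called higher (12.8%) and 4563 lower (38.2%) after heat, and the median log2 change of all genes was -0.17. That shift depends on scaling: it was 0.0077 after median-of-ratios scaling, with 2758 higher and 2700 lower, and -0.038 after quantile normalization, with 2374 and 3185. A gene is therefore said to have risen or fallen only where the adjusted p was under 0.05 with the same sign under all 3 scalings. By that rule 1488 genes rose (12.5%) and 2606 fell (21.8%), of which 475 rose and 292 fell by at least 2-fold, and 34 rose and 3 fell by at least 8-fold. Heated and unheated libraries did not overlap in 70.9% of all tested genes, so separation of the groups alone says little about a gene. All 2606 fallen genes and 1486 of the risen ones were without overlap, so separation adds little to a call. Of the tested genes, 622 reached 1 FPKM in fewer than 2 unheated libraries and needed a heated library to pass, and 459 of these rose. They are said below to have passed only through the heated libraries. Where no unheated library reached 1 FPKM, the heated values had to be higher. Another 484 reached 1 FPKM in no heated library and passed only through the unheated ones, and 274 of these fell. Values given as log2 changes are heated minus unheated on log2(FPKM + 1) ± standard error, which understates the change of low genes.

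**Figure D1:**
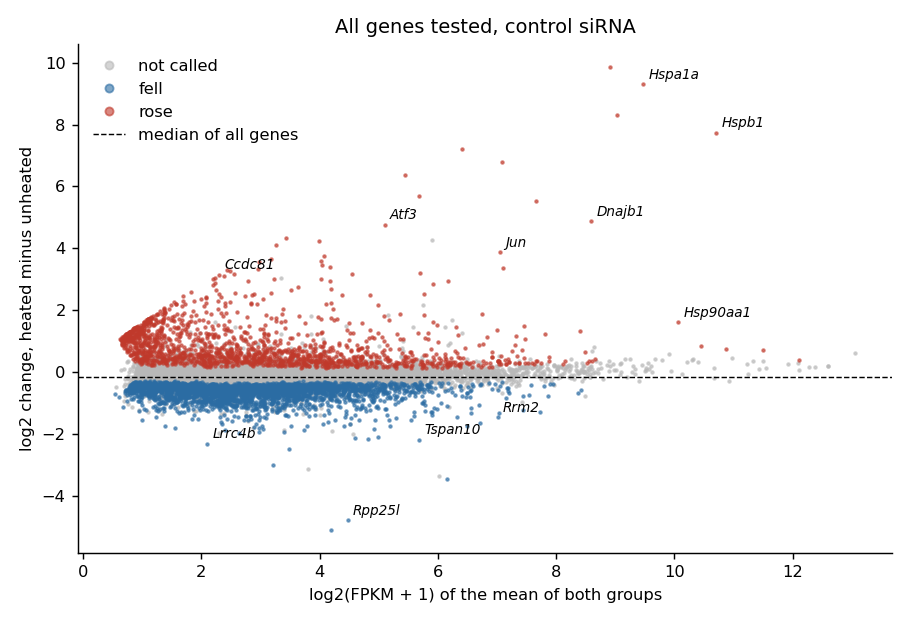
Each point is 1 of the 11944 genes tested, with the log2 of its mean level over both groups (FPKM + 1) on the x axis and its log2 change with heat on the y axis; red genes rose and blue genes fell under all 3 scalings. Hspa1a, Hspa1b and Hspb1 lie highest among protein-coding genes, and the median of all genes is -0.17.

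The inducible Hsp70 genes showed the largest rise of any protein-coding gene tested. Hspa1a, which encodes stress-inducible Hsp70, was at 1.25, 1.22 and 1.26 FPKM without heat and at 1474 and 1358 FPKM after it. Its neighbour Hspa1b was at 4.13, 3.91 and 0.439 FPKM and then at 1033 and 1058 FPKM. Every heated library lay far above every unheated one, and the split of fragments between the pair was uneven in unheated replicate 3. Summed, the 2 genes went from 5.37, 5.13 and 1.70 FPKM to 2506 and 2416 FPKM, a log2 change of 9.03 ± 0.43 (limma, adjusted p = 4.56e-07).

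Other Hsp70 and Hsp110 genes moved in both directions. Of 11 members tested, 4 rose and 2 fell, against 12.5% and 21.8% of all genes, and the list median lay 0.22 above that of all genes. Hsph1, an Hsp110 nucleotide exchange factor of Hsp70, rose from 44.0, 46.6 and 45.1 FPKM to 177 and 158 FPKM (log2 change 1.86 ± 0.08). Hspa4l, another Hsp110 gene, rose by 0.59 ± 0.09 to 3.82 and 3.25 FPKM. The constitutive Hsp70 gene Hspa8, already at 489, 505 and 516 FPKM, was at 529 and 516 FPKM after heat and was not called (0.05 ± 0.05), and its value turned to -0.18 under quantile normalization. Hspa12b (-0.73 ± 0.08) and Hspa14 (-0.40 ± 0.07) fell. Hspa12a was at 0 in all 5 libraries and was not tested.

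Small heat shock proteins, which hold unfolded proteins without ATP, included the most abundant chaperone transcript after heat. Hspb1 was at 11.9, 16.1 and 16.0 FPKM without heat and at 3296 and 3321 FPKM after it, 225 times its unheated mean (log2 change 7.73 ± 0.27, limma adjusted p = 1.15e-07). The annotated pseudogene Hsp25-ps1, a copy of Hspb1 named here because it can share fragments with it, went from 1.29, 1.66 and 1.38 FPKM to 252 and 287 FPKM, so the split between the pair is uncertain. Hspb8, a partner of Bag3 in chaperone-assisted autophagy, went from 14.2, 15.3 and 15.8 FPKM to 83.4 and 99.3 FPKM (2.52 ± 0.43). Cryab, which encodes alpha B-crystallin, went from 91.3, 90.5 and 94.8 FPKM to 266 and 249.7 FPKM (1.47 ± 0.07). The groups did not overlap in Hspb1, Hspb8 or Cryab. Hspb2 rose by 1.64 ± 0.42 to 13.3 and 13.5 FPKM, but it lies head to head with Cryab and overlaps it, and how strand was treated in counting is not given in the sources used here. Hspb6 (-0.04 ± 0.11) was not called, and Cryaa, Hspb3, Hspb7 and Hspb9 stayed under the filter.

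Among BAG proteins, which release nucleotide from Hsp70, Bag3 stood apart. Its unheated libraries held 23.5, 22.1 and 24.2 FPKM and its heated ones 259 and 239.8 FPKM, a log2 change of 3.37 ± 0.08 (limma, adjusted p = 1.23e-08). Bag2 fell by 0.45 on the log2 scale, and Bag4, Bag5 and Bag6 were not called. Bag1 rose by 0.31 ± 0.10, but the call ended without heated replicate 1 (adjusted p = 0.0635), heated replicate 3 (0.132), unheated replicate 1 (0.0764) or unheated replicate 2 (0.0527). In all, 6 of 11 small heat shock and BAG genes tested rose and 1 fell, with a median 0.48 above all genes.

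J-domain proteins of the Hsp40 class, which load clients onto Hsp70, split into 1 strong responder and a modest rest. Dnajb1 went from 25.8, 22.4 and 25.2 FPKM to 769.8 and 713 FPKM, 30.3 times its unheated mean (4.87 ± 0.09, limma adjusted p = 3.66e-09). Dnajb4 followed from 2.58, 2.41 and 1.40 FPKM to 10.1 and 9.01 FPKM (1.77 ± 0.18). Both genes lay higher in each heated library than in any unheated one. Dnaja1 (0.56 ± 0.06), Dnajb6 (0.47 ± 0.07) and Dnajc9 (0.34 ± 0.07) also rose, and Dnajb12, a membrane J protein of the endoplasmic reticulum, fell by 0.41. The count was 5 risen and 1 fallen of 14 tested.

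Both cytosolic Hsp90 genes rose, from levels that were already high. Hsp90aa1, the inducible form, went from 520.1, 544 and 512 FPKM to 1631 and 1574 FPKM (1.61 ± 0.05), and Hsp90ab1, the constitutive form, from 977, 974 and 1035 FPKM to 1817 and 1769.7 FPKM (0.85 ± 0.05). The co-chaperones that rose were Chordc1 (1.03 ± 0.06), Ptges3, the p23 gene (0.57 ± 0.10), Ahsa1, which speeds the Hsp90 ATPase (0.45 ± 0.05), and Stip1, which bridges Hsp70 and Hsp90 (0.37 ± 0.05). Ttc4 (-0.79 ± 0.05), Fkbp5 (-0.49 ± 0.05) and Unc45a (-0.46 ± 0.06) fell, and Fkbp4 and Cdc37 were not called. The list thus held 6 risen and 3 fallen genes of 18, and its median was 0.15 above all genes.

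The heat shock factors themselves changed little at the RNA level. Hsf1 was at 6.18, 6.42 and 6.34 FPKM and then at 5.51 and 5.51 FPKM. It was not called, because its change of -0.17 turned to 0.01 and 0.02 under the other scalings. Hsf2 went from 3.15, 3.13 and 3.23 FPKM to 3.94 and 3.73 FPKM (0.21 ± 0.06), a rise that ended without heated replicate 1 (adjusted p = 0.0921) or with 1 total per library (0.0818). Hsbp1, a small binder of heat shock factors, rose by 0.26 ± 0.07, and this call ended without heated replicate 1 (0.0521) or 3 (0.0649). Hsf4 was not called.

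**Figure D2:**
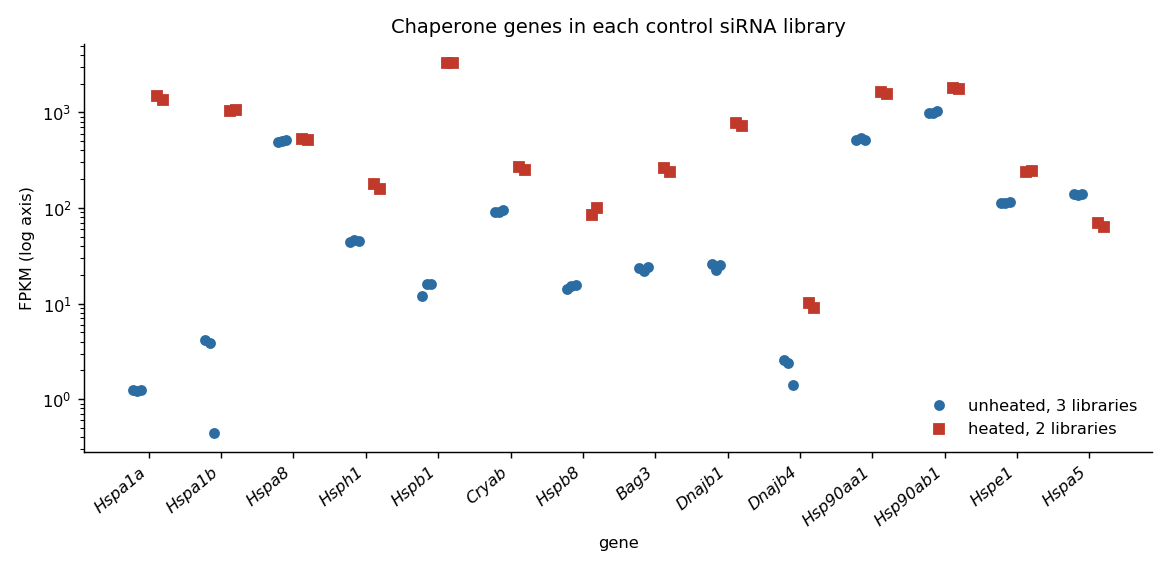
FPKM on a log axis of 14 chaperone genes in each of the 3 unheated (blue circles) and 2 heated (red squares) control siRNA libraries. Hspb1, Hspa1a, Hspa1b and Dnajb1 rise most, Hspa8 is at 489 to 529 FPKM throughout, and Hspa5 is the 1 gene shown that fell.

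Ubiquitin genes and degradation adaptors rose in 8 of 19 cases, of which 1 passed the filter only through the heated libraries, and fell in 1. Ubb, a polyubiquitin gene, went from 2.50, 2.43 and 0.525 FPKM to 14.0 and 14.8 FPKM (2.55 ± 0.30). Zfand2a, an arsenite- and heat-inducible proteasome adaptor, went from 5.41, 5.59 and 4.50 FPKM to 29.9 and 24.8 FPKM (2.20 ± 0.10). Smaller rises included those of Ube2h (0.74 ± 0.05) and the shuttle gene Ubqln1 (0.39 ± 0.05), while its paralog Ubqln2 fell by 0.48. Sqstm1, the autophagy receptor p62, was at 143, 90.3 and 94.7 FPKM and then at 257 and 149.7 FPKM. Its heated values were uneven, and the rise of 0.87 ± 0.27 was no longer called without heated replicate 1 (adjusted p = 0.221), unheated replicate 2 (0.0677) or unheated replicate 3 (0.0625), or with the 5 control libraries alone (0.0562). Of 45 proteasome subunits and assembly genes tested, 3 rose and 1 fell, against 12.5% and 21.8% of all genes.

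In the mitochondrion, the Hsp60 partner Hspe1, whose element is shown above, rose from 114, 113 and 116 FPKM to 238 and 243 FPKM (1.07 ± 0.09, limma adjusted p = 1.02e-05). In the GENCODE annotation used for gene positions, Hspe1 overlaps Hspd1 head to head. Hspd1, the Hsp60 gene that starts from the same stretch in the other direction, was at 751, 789 and 771 FPKM and then at 1162 and 1123 FPKM, with no overlap. Chosen as the partner of Hspe1 after its values were seen, it is not counted as risen because quantile normalization reduced its change from 0.57 to 0.05 (adjusted p = 0.637). The mitochondrial Hsp70 gene Hspa9 (0.28 ± 0.05) and the protease gene Lonp1 (0.27 ± 0.05) rose slightly, and Grpel2 fell by 0.50. In all 3 of 15 mitochondrial chaperones and proteases rose and 1 fell, against 12.5% and 21.8% of all genes. The cytosolic chaperonin and prefoldin list, which folds actin and tubulin, held 14 genes. Against the same shares of all genes, 0 of these fell and 2 rose, Cct4 and Cct7. Both calls ended with 1 total per library (adjusted p = 0.199 and 0.138), and that of Cct4 also without any 1 of the 5 control libraries (0.064 to 0.211).

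The main chaperone gene of the endoplasmic reticulum fell. Hspa5, which encodes BiP, fell from 142, 136 and 139 FPKM to 69.6 and 62.8 FPKM (-1.06 ± 0.17). Sel1l, the scaffold of the degradation complex of that compartment, fell from 13.2, 13.5 and 12.6 FPKM to 6.37 and 6.74 FPKM, and Pdia4 (-0.60 ± 0.05) also fell. Dnajb9, a BiP co-chaperone, rose against this direction from 8.40, 9.44 and 7.88 FPKM to 23.2 and 21.6 FPKM (1.29 ± 0.08). The list held 6 fallen and 2 risen genes of 28, a fallen share near the 21.8% of all genes, and its median was 0.02 above all genes and -0.05 under quantile normalization.

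Transcription factors of the AP-1 family rose. Of 10 tested, 9 rose and 0 fell, with a median 1.63 above all genes, although 1 of them passed the filter only through the heated libraries, as did 1 member each of the endoplasmic reticulum, early response, phosphatase, integrated stress response, ribosomal protein and tubulin lists and 2 of the Krüppel-like list. Atf3, a stress-induced repressor of the family, was at 1.34, 1.72 and 1.20 FPKM without heat and at 74.0 and 56.2 FPKM after it (4.76 ± 0.12, limma adjusted p = 1.23e-08). Jun went from 15.8, 15.8 and 16.3 FPKM to 251 and 243 FPKM (3.87 ± 0.08). Junb rose by 2.04 ± 0.11 and Fos by 1.76 ± 0.10.

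Other early response genes rose in 7 of 13 cases. The zinc finger gene Egr1 was at 0.647, 0.753 and 0.697 FPKM and then at 4.09 and 7.5 FPKM, and it passed the filter only through the heated libraries, so its direction was set. Zfp36, which destabilises short-lived mRNAs, rose by 1.38 ± 0.07, and the orphan receptor gene Nr4a3 by 1.30 ± 0.13, and 1 member fell. Of 9 phosphatases that switch off MAP kinases, 4 rose and 1 fell. Dusp8, which acts on JNK and p38, went from 2.12, 2.05 and 2.13 FPKM to 33.7 and 30.3 FPKM (3.41 ± 0.13), and Dusp1 from 3.22, 2.96 and 3.11 FPKM to 16.5 and 15.2 FPKM (2.04 ± 0.11). Among Krüppel-like factors, 4 rose and 4 fell of 11. Klf11 (1.80 ± 0.12) and Klf6 (1.79 ± 0.09) stood at one end and Klf15 (-1.27 ± 0.08) at the other.

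Growth arrest genes rose together with targets of p53. Of 8 GADD45 and BTG/TOB genes, 6 rose and 1 fell, with a median 1.13 above all genes. Gadd45g, a stress sensor upstream of p38 and JNK, went from 1.30, 1.40 and 1.26 FPKM to 32.9 and 27.8 FPKM (3.75 ± 0.13). Btg2, an antiproliferative p53 target whose promoter is shown above, went from 2.56, 2.66 and 2.45 FPKM to 29.7 and 26.0 FPKM (3.02 ± 0.09). Gadd45b rose by 1.85 ± 0.07, and Tob2, of the same family, fell from 7.53, 7.37 and 7.60 FPKM to 2.36 and 2.05 FPKM (-1.41 ± 0.08).

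Of 24 p53 targets tested, 15 rose and 1 fell, and the median was 0.59 above all genes. The pro-apoptotic gene Bbc3, which encodes PUMA, went from 1.85, 2.14 and 2.63 FPKM to 21.9 and 19.2 FPKM (2.76 ± 0.11). Trp53inp1 went from 8.0, 8.14 and 7.22 FPKM to 52.8 and 43.6 FPKM (2.48 ± 0.09), and the cell cycle inhibitor gene Cdkn1a from 132, 135 and 132 FPKM to 341 and 282 FPKM (1.21 ± 0.07). All heated values lay above all unheated ones in these 3 genes. Plk2, a polo-like kinase gene, also rose (2.22 ± 0.11). Bid, a pro-apoptotic member of the BCL2 family, fell from 12.1, 11.2 and 11 FPKM to 3.65 and 4.01 FPKM (-1.36 ± 0.10).

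The integrated stress response list, 24 genes downstream of eIF2 phosphorylation and Atf4, held 11 risen and 2 fallen ones. Ddit4, an inhibitor of mTORC1, went from 8.73, 9.45 and 9.59 FPKM to 96.2 and 89.0 FPKM (3.19 ± 0.10). Ppp1r15a, the GADD34 gene that restores translation, went from 2.93, 3.77 and 2.80 FPKM to 32.9 and 29.3 FPKM (2.95 ± 0.11). Chac1, which degrades glutathione, rose by 1.49 ± 0.09. Gdf15, a secreted stress cytokine, was at 1.19, 1.29 and 1.25 FPKM and then at 10.3 and 2.59 FPKM, so its rise of 1.51 ± 0.37 differed strongly between the 2 heated libraries. Of 19 autophagy genes, 8 rose and 0 fell, with Atg14 at 0.87 ± 0.09 and Atg12 at 0.70 ± 0.05.

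Of 12 angiogenic and stress-secreted growth factors, 7 rose and 1 fell, and 2 of the 7 passed the filter only through the heated libraries. Tgfb3 was the 1 that fell (-0.97 ± 0.18). Outside that list, Pgf, placental growth factor of the VEGF family, was at 0.382, 0.248 and 0.585 FPKM without heat and at 15.3 and 10.9 FPKM after it, 32.3 times its unheated mean, and also passed the filter through the heated libraries alone. Ccn1, a matricellular protein gene, went from 13.6, 14.4 and 13.3 FPKM to 106 and 104 FPKM (2.85 ± 0.11). Of 18 interferon-stimulated genes, 3 rose and 4 fell, near the 12.5% and 21.8% of all genes. All 3 that rose passed the filter only through the heated libraries. Ifit2, an antiviral gene, fell by 0.70, and Isg20, an exonuclease gene among those 3, was at 0.348, 0.324 and 0.36 FPKM and then at 7.22 and 5.12 FPKM. Of 11 ID and SMAD feedback genes, 6 rose and 0 fell, among them Id1 (1.76 ± 0.23), Smad7 (1.52 ± 0.18) and Skil (1.37 ± 0.10).

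Metal-response genes moved in opposite directions. Mtf1, the zinc-sensing activator of metallothioneins, rose from 3.56, 3.63 and 3.04 FPKM to 10.3 and 10.6 FPKM (1.38 ± 0.07). Its textbook targets Mt1 and Mt2 fell, Mt1 from 189.9, 186 and 184 FPKM to 72.9 and 75.0 FPKM (-1.32 ± 0.16) and Mt2 from 187, 117 and 173 FPKM to 49.3 and 48.7 FPKM (-1.65 ± 0.20). Of 19 antioxidant and ferritin genes, 4 rose, 4 fell and 11 were not called, against 12.5% risen and 21.8% fallen of all genes. Among them, Hmox1 rose from 46.0, 47.4 and 51.3 FPKM to 117 and 105 FPKM (1.19 ± 0.06). Nfe2l2, which encodes NRF2, fell by 0.82.

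**Figure D3:**
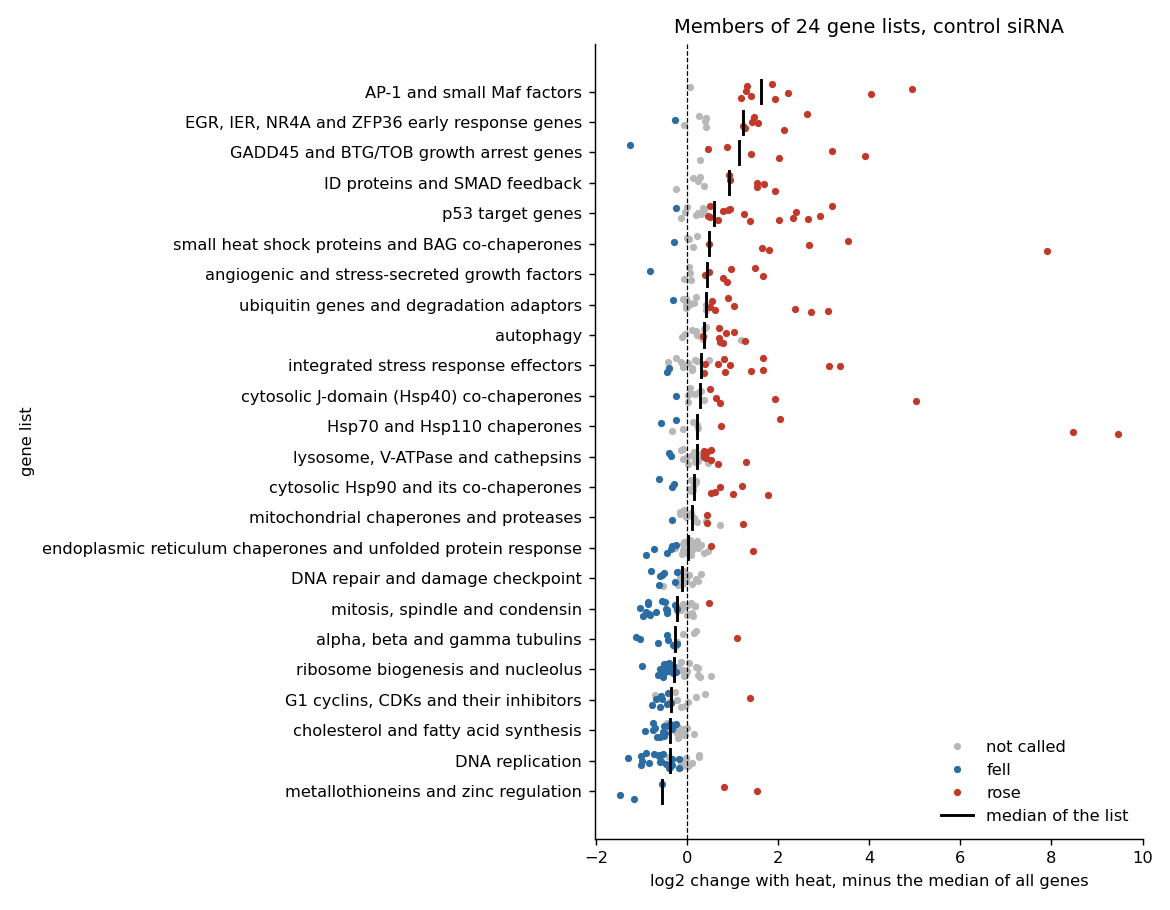
Each point is a tested member of a gene list, placed by its log2 change with heat minus the median of all genes; red members rose, blue members fell and black bars mark list medians. AP-1 genes lie furthest to the right with a median of 1.63. Metallothionein and zinc genes lie furthest to the left at -0.54, and DNA replication and cholesterol genes lie at -0.37.

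Genes of DNA replication and mitosis fell. Of 31 DNA replication genes, 19 fell and 0 rose, with a median 0.37 below all genes. Rrm2, a ribonucleotide reductase subunit, fell from 182, 192 and 191 FPKM to 68.0 and 67.2 FPKM (-1.47 ± 0.06). Cdc6, which loads the replicative helicase, fell from 9.69, 10.2 and 9.03 FPKM to 3.60 and 3.82 FPKM (-1.18 ± 0.07). Of 30 mitosis genes, 15 fell and 1 rose. The spindle gene Kif2c was at -1.19 ± 0.08 and the cyclin gene Ccnb1 at -1.14 ± 0.05. Of 18 G1 regulators, 8 fell, among them Ccne1 (-0.93 ± 0.07) and Ccnd1 (-0.75 ± 0.04), and the 1 that rose was Cdkn1a. Myc fell from 58.0, 49.6 and 51.6 FPKM to 18.1 and 16.9 FPKM (-1.55 ± 0.10). Of 26 DNA repair genes, 7 fell and 0 rose, a fallen share near the 21.8% of all genes.

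Genes of ribosome biogenesis and of lipid synthesis fell as well. Of 32 ribosome biogenesis genes, 18 fell and 0 rose, with a median 0.28 below all genes. Polr1b, the second subunit of RNA polymerase I, fell from 15.8, 16.5 and 16.3 FPKM to 6.50 and 6.91 FPKM (-1.16 ± 0.05), and the pseudouridine synthase gene Dkc1 by 0.81. Genes for the ribosomal proteins themselves did not follow: 8 of 81 rose and 1 fell, against 12.5% and 21.8% of all genes. Their median was 0.25 above all genes. Of 29 cholesterol and fatty acid synthesis genes, 17 fell and 0 rose. Nsdhl fell from 21.3, 20.4 and 21 FPKM to 8.67 and 10.0 FPKM (-1.08 ± 0.06), and the regulator gene Srebf1 fell by 0.87. The mitochondrial ribosomal protein gene Mrpl18 fell from 44.3, 44.9 and 45.2 FPKM to 13.6 and 15.8 FPKM (-1.55 ± 0.12), but with 12 fallen and 1 risen genes of 78 its list lay under the 21.8% of all genes that fell.

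Some lineage and cytoskeleton genes were among the fallen. Of 18 pigmentation genes, 6 fell, 1 rose and 11 were not called, against 21.8% fallen and 12.5% risen of all genes. Tspan10, a tetraspanin of pigment cells, fell from 85.7, 78.6 and 85.6 FPKM to 17.4 and 17.6 FPKM (-2.19 ± 0.09), the tyrosinase gene Tyr from 55.4, 58.2 and 56.8 FPKM to 19.0 and 20.6 FPKM (-1.48 ± 0.07). Of 13 tubulin genes, 7 fell and 1 rose, which had passed the filter only through the heated libraries. Tubb4b fell from 294, 287 and 314 FPKM to 116 and 127 FPKM (-1.29 ± 0.07), and Actb, beta actin, from 249, 229.7 and 250.1 FPKM to 107 and 99.1 FPKM (-1.23 ± 0.16). The actin list as a whole did not follow: of 20 genes tested 2 fell, 2 rose and 16 were not called. Its median was 0.11 above all genes, and -0.03 under quantile normalization. Splicing regulators were divided, with 6 risen and 12 fallen of 36. Srsf5 fell from 47.0, 47.2 and 47.9 FPKM to 22 and 18.6 FPKM (-1.19 ± 0.09), and the SR protein kinase gene Clk1 rose by 0.68 ± 0.06.

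The largest fall of a protein-coding gene was that of Rpp25l, which encodes a homologue of an RNase P and RNase MRP subunit (ENSMUSG00000036114, chromosome 4, 41712033 to 41713534, GRCm38). Unheated libraries held 43.9, 40.6 and 41.3 FPKM of it and heated ones 0.352 and 0.745 FPKM (-4.80 ± 0.77, limma adjusted p = 0.00067), and it passed the filter only through the unheated libraries. The chloride channel gene Clic1 fell from 17.0, 19.3 and 16.4 FPKM to 4.48 and 0.967 FPKM (-2.50 ± 0.34). Lpar5, a receptor for lysophosphatidic acid, fell from 21.6, 18.7 and 6.51 FPKM to 0.446 and 1.43 FPKM (-3.0 ± 0.55). Gemin4 of the SMN complex fell by 1.93, the histone variant gene H2afx by 1.85 and the glucose transporter gene Slc2a1 by 1.76. These 6 genes were chosen among those whose groups did not overlap, so their separation was set by the choice.

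Heat was followed by reads on genes that had none before. Genes above 0 numbered 20365, 20000 and 20277 without heat and 23173 and 23242 after it, although the heated libraries were shallower. The groups did not overlap, and the exact permutation test (two-sided) gave p = 0.2, the smallest that 3 against 2 libraries allow. At 1 FPKM or more the counts were nearly level, 11328, 11347 and 11334 against 11434 and 11366. Genes at 0 in every unheated and above 0 in both heated libraries numbered 1719, with 892 protein-coding ones and a median heated mean of 0.0791 FPKM, against 175 in the opposite direction. Here and in the next class the 2 directions are not mirror images, since 3 libraries stand on one side and 2 on the other. The part of this in the contrasts was not tested. A stricter class, under 0.1 FPKM in each unheated and at least 1 FPKM in both heated libraries, held 113 entries, of which 48 were protein coding and 35 were loci that the assembler added to the annotation, against 3 in the opposite direction. The highest of these was such a locus, MSTRG.10411, named after its values were seen. It was at 0, 0 and 0.0929 FPKM and then at 870 and 1053 FPKM. Its log2 change of 9.86 was above that of Hspa1a (9.30).

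The 8 protein-coding genes of that class with the highest heated means are given, after passing over clone and predicted-gene names, with the distance to the nearest gene upstream on the same strand whose mean over the 5 libraries exceeded 0.5 FPKM. Ccdc81 (ENSMUSG00000039391, chromosome 7, 89866148 to 89903629, minus strand) was at 0 in each unheated library and at 8.42 and 7.24 FPKM after heat. Its start lies 13.9 kb past the end of Hikeshi, the nuclear import carrier of Hsp70, on the same strand. Ccdc194 was at 0, 0.0207 and 0 FPKM and then at 7.46 and 6.86 FPKM, 8.54 kb past Bst2. Pld4 was at 0.0491, 0.0761 and 0.0593 FPKM and then at 4.44 and 3.33 FPKM, 14.1 kb past Cep170b. Tnni1, a muscle troponin gene, was at most at 0.0771 FPKM and then at 2.91 and 2.69 FPKM, 10.3 kb past Phlda3. Tbxa2r, a thromboxane receptor gene, reached 3.49 and 2.81 FPKM, 2.49 kb past Cactin, and Tnn reached 3.32 and 3.08 FPKM from 0, 48.8 kb past Cacybp. Rag1, a recombinase gene of lymphocytes, went from 0 in each unheated library to 3.03 and 2.89 FPKM and lies within the expressed gene B230118H07Rik on the same strand. Bsx, a brain homeobox gene, went from 0 to 2.87 and 2.23 FPKM, and lies 51.5 kb past Gm48565, which was itself at 0 in every unheated library. Of the genes passed over, Gm9817, Gm20481 and E330021D16Rik had heated means of 5.11, 4.63 and 2.74 FPKM and lie 157, 34.0 and 398 kb from such a gene. Gm20481 (chromosome 17, 34969912 to 34972136, plus strand) lies opposite Hspa1a, on the side of its start that Hspa1a is read towards. How strand was treated in counting is not given, so the split of fragments between these 2 genes is uncertain.

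Position relative to an expressed gene was therefore tabulated for all 9900 protein-coding genes under 0.1 FPKM in each unheated library, in distance classes chosen after the data were seen. The neighbour was chosen as above, from all 5 libraries, so that it can itself have been silent without heat. Genes that start inside that neighbour were put in the nearest class. Of genes that start inside it or within 5 kb of its end, 135 of 428 (31.5%) reached 0.1 FPKM in both heated libraries. The share was 27.9% at 5 to 20 kb (183 of 656), 14.8% at 20 to 50 kb (121 of 819) and 2.78% beyond 50 kb or without such a neighbour (222 of 7997), and 6.68% over all. Within 20 kb it was 45.5% where the neighbour rose, 29.2% where it was not called and 25.3% where it fell. Neighbouring genes share fragments and chromatin and are not independent, so no test is given. With YAP/TAZ siRNA, the shares of genes under 0.1 FPKM without heat in both siRNAs were 6.35, 5.21, 2.49 and 0.257% in the same order of distances. Here 0.1 FPKM had to be reached in all 3 heated libraries, against 2 with control siRNA. These 3 held 30.4, 32.3 and 38.5 M fragments. The rules are thus unlike, and the difference from control siRNA was not tested.

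**Figure D4:**
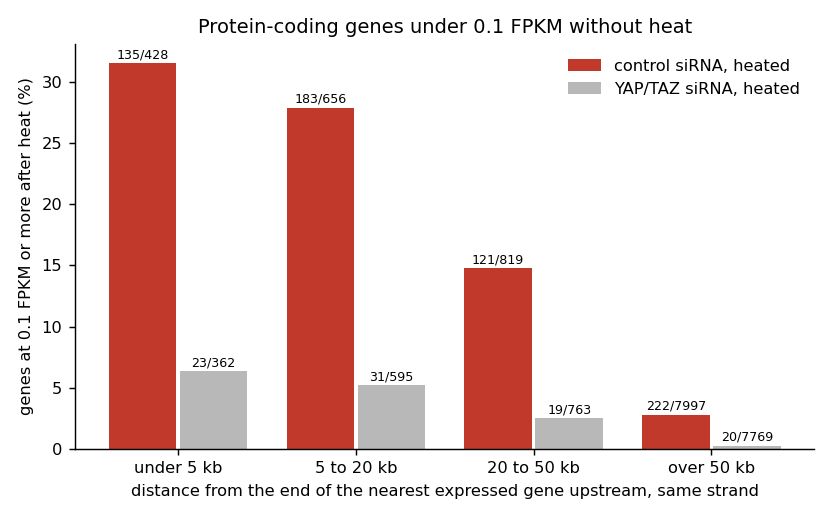
Bars give the percentage of protein-coding genes under 0.1 FPKM without heat that reached at least 0.1 FPKM in every heated library, by the distance of their start from the end of the nearest expressed gene upstream on the same strand; numbers above bars are genes reached out of all in the class. With control siRNA (red) the share falls from 31.5% under 5 kb to 2.78% over 50 kb, and with YAP/TAZ siRNA (grey) from 6.35% to 0.257%. The class under 5 kb includes genes that start inside the expressed gene.

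Risen and fallen shares were set beside the number of exons. Among tested protein-coding genes, 17.8% of single-exon genes rose, against 14.6% with 2 to 4 exons, 10.4% with 5 to 10 and 7.18% with over 10 exons, while the fallen share was 22.4, 23, 20.9 and 26.5%. These shares include genes whose direction the filter had set: of all tested genes with an unheated mean under 1 FPKM 75.5% rose, against 9.17, 8.79 and 11.7% at 1 to 10, 10 to 100 and over 100 FPKM. The part of this in the order by exons was not tested. Several transcripts that carry no poly(A) tail, or are linked to ribosomal RNA loci, moved with heat and were picked out after their values were seen. Rmrp, the RNA of RNase MRP, was at 0.168, 0.186 and 0.162 FPKM and then at 8.48 and 10.7 FPKM, and Rpph1, the RNA of RNase P, at 0.142, 0.0818 and 0.143 FPKM and then at 6.61 and 7.93 FPKM. Gm26917 was at 6.79, 5.11 and 12.2 FPKM and then at 411 and 381 FPKM. The part of RNA selection in the results was not tested.

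The promoter letters were counted in the 250 bases before the start, on both strands, for 7986 of the 10032 tested protein-coding genes that matched the RefSeq table. Heat shock elements of 3 blocks (GAANNTTCNNGAA or TTCNNGAANNTTC) were in 0.514% of all 27025 promoters of the table, 0.488% of tested genes, 1.11% of those that rose (9 genes), 0.532% of those that rose at least 2-fold (1 of 188), 0 of 37 that rose at least 4-fold and 0.267% of those that fell. The 2-block letters, added after the data were seen and contained in the longer ones, were in 14.5% of all promoters, 11.7% of tested ones, 12.3% of those that rose, 10.8% of those that fell, 18.1% of genes that rose at least 2-fold (34 of 188) and 21.6% of those that rose at least 4-fold (8 of 37). These 8, named by their promoter letters, were Hspa1a, Hspa1b, Hspb1, Jun, Ccn1, Ghrl, Zfand2a and Pld4. The 4-block element of Hspe1 was in 5 tested genes, and Hspe1, Kctd18 and Arpc2 rose while Hspd1 and Fam149a were not called. The cAMP response element TGACGTCA, bound by CREB and ATF proteins, was in 1.77% of all promoters, 3.08% of tested ones, 4.83% of those that rose, 2.77% of those that fell, 5.85% of those that rose at least 2-fold and 6 of the 37 that rose at least 4-fold (16.2%), which were Dusp8, Btg2, Ppp1r15a, Plk2, Zfand2a and Dusp1. The AP-1 letters TGANTCA were in 7.82, 4.81, 5.94, 4.22, 7.45 and 13.5% of the same 6 sets. A match is a run of letters and not a measured binding site.

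The control response differed from that of cells with YAP/TAZ siRNA in many genes. The interaction, the log2 change with control siRNA minus that with YAP/TAZ siRNA, was higher in 1523 genes (12.8%) and lower in 1844 (15.4%) under all 3 scalings, around a median of -0.12. Of the former, 968 rose in control cells, and of the latter 1063 fell there. The comparison does not share libraries between its 2 heat contrasts.

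Interactions of chaperone genes were called in both directions. Of 11 Hsp70 list genes 5 were higher and 3 lower, of 18 Hsp90 list genes 2 and 4, and of 15 mitochondrial list genes 0 and 4. Of all genes, 12.8% were higher and 15.4% lower, so the Hsp90 counts lie near those shares. Hspa1a reached 96.4, 133 and 14.7 FPKM in heated YAP/TAZ siRNA libraries, all under the 2 heated control values, with an interaction of 4.52 ± 0.95 (limma, adjusted p = 0.00541). Hspb1 reached 182, 232 and 112 FPKM there (interaction 3.94 ± 0.36). A difference was not called by limma for Hsp90ab1 (0.85 and 0.77, interaction 0.08 ± 0.07, adjusted p = 0.4). Hspa8 and Hspe1 had lower interactions, -0.63 ± 0.07 and -0.59 ± 0.12, since with YAP/TAZ siRNA they changed by 0.68 and 1.66.

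Several p53 targets and early genes also differed. Atf3 went from 3.88, 4.0 and 4.04 FPKM to 6.26, 6.20 and 6.07 FPKM with YAP/TAZ siRNA, a log2 change of 0.53 against 4.76 in control cells. Trp53inp1 (-1.22), Bbc3 (-0.91), Btg2 (-0.53) and Cdkn1a (-0.45) were lower after heat with YAP/TAZ siRNA and higher with control siRNA. In the p53 list 19 of 24 interactions were higher and 0 lower, and in the AP-1 list 9 of 10 were higher. In the other direction, 25 of 31 replication genes, 27 of 32 ribosome biogenesis genes, 20 of 30 mitosis genes and 43 of 81 ribosomal protein genes had lower interactions, and 0 of each were higher. The medians with YAP/TAZ siRNA were 0.21, 0.25, 0.12 and 0.77 in that order, against -0.54, -0.45, -0.39 and 0.08 in control cells.

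**Figure D5:**
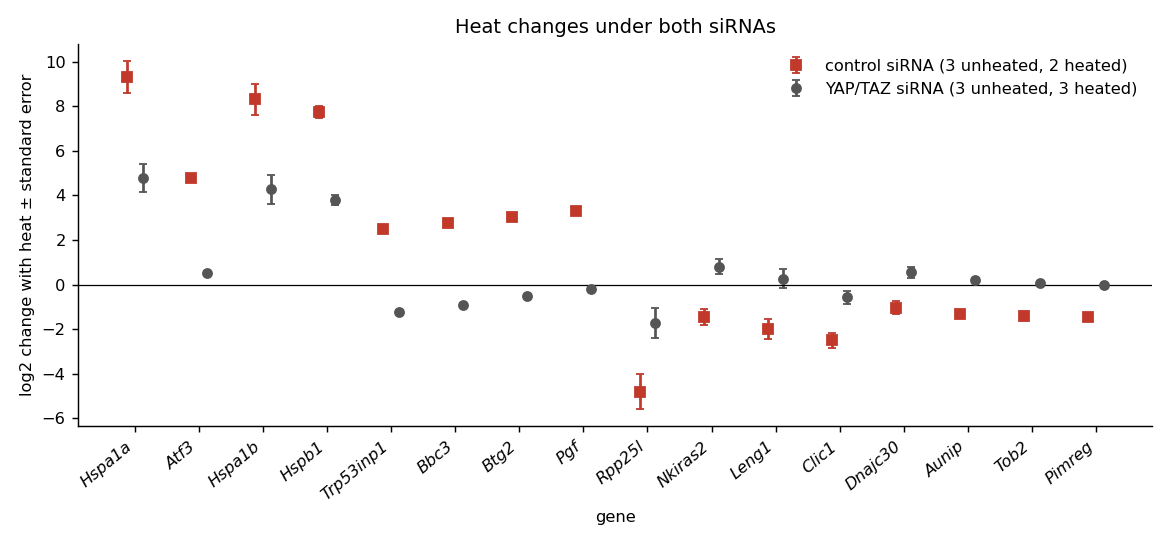
Log2 change with heat ± standard error under control siRNA (red squares, 3 unheated and 2 heated libraries) and YAP/TAZ siRNA (grey circles, 3 and 3) for the 8 highest and 8 lowest interactions among genes chosen by the naming rule. Trp53inp1, Bbc3, Btg2 and Pgf lie above 0 with control siRNA and below 0 with YAP/TAZ siRNA, and Rpp25l lies lowest under both.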

How the data were processed

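Libraries of total RNA were made with the NEBNext Ultra kit, per the labels' protocols. Trimmomatic 0.36, HISAT2, SAMtools, StringTie and DESeq2 with build GRCm38 are named, per the submitters' processing notes; for annotation release, strand setting and counting, nothing is given in the sources used here. The deposited values are FPKM per gene; FPKM steps depend on the length used for each gene, which the file does not give, so reads were not recovered and no count test was run. A replicate 2 of heated cells with control siRNA is not analysed here.

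Of the 5 control libraries, 2 had to reach 1 FPKM. log2(FPKM + 1) of all 11 libraries was fitted with a mean per group (limma 3.58.1, R 4.3.3, trended variance, 7 residual degrees of freedom), with Benjamini-Hochberg adjustment over 11944 genes for each of 2 comparisons, heat and its interaction with siRNA. Python 3.11.15, numpy 2.4.6, pandas 2.3.3, scipy 1.17.1 and matplotlib 3.10.9 did the rest. The script was tested on simulated data. Positions are from the GENCODE annotation on GRCm38 and promoters from RefSeq on GRCm38.p6.

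Genes were named by rule: the siRNA targets, the 15 highest and 15 lowest changes, all tested chaperone and ubiquitin list members, 4 of every other list, and the 8 leading newly detected (protein coding, clone and predicted names passed over, a condition added to the rule after the data were seen) and 8 leading interaction genes each way; others are neighbours or copies of these, cell type markers, genes with promoter letters, or said to be chosen after their values were seen. The 15 highest and 15 lowest changes were drawn only from called protein-coding genes whose groups did not overlap, above a minimum level. Members and lists were chosen with earlier results of these data known. Lists have no set test. Alternatives were scaling, filter, pseudocount, trend, control libraries alone, a replicate block and leaving out each library. The 2-block, cAMP response element and AP-1 letters, distance classes, the Hspa1a and Hspa1b sum and calls by each scaling alone were added after the data were seen. Some members of the lists are not reported here by name.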

Additional observations from a re-analysis of the deposited data

Results flagged for a closer look

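The heat response with control siRNA differed from that with YAP/TAZ siRNA by the interaction test (limma, adjusted p under 0.05 under all 3 scalings) for the 16 genes below, the 8 highest and 8 lowest by the naming rule. Values are the log2 change with control siRNA minus that with YAP/TAZ siRNA. The chaperone genes Hspa1a (4.52), Hspa1b (4.04) and Hspb1 (3.94) were higher. So were the stress factor gene Atf3 (4.24), the p53 targets Trp53inp1 (3.70), Bbc3 (3.67) and Btg2 (3.54), and the growth factor gene Pgf (3.54), which passed the filter only through the heated control libraries. Lower values were those of Rpp25l (-3.07), Nkiras2 (-2.27), Leng1 (-2.25), Clic1 (-1.92), Dnajc30 (-1.60), Aunip (-1.49), Tob2 (-1.47) and Pimreg (-1.44). The change with heat in control cells was no longer called without heated replicate 1 for Nkiras2 (adjusted p = 0.0815) and Dnajc30 (0.144).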

How the results depend on the processing

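With FPKM as deposited, 1529 genes were higher and 4563 lower, against 2758 and 2700 after median-of-ratios scaling and 2374 and 3185 after quantile normalization. A filter at 5 FPKM gave 871 higher and 3029 lower, and no filter gave 4233 higher. For calls under all 3 scalings, that filter gave 827 risen, 1703 fallen and 852 higher interactions, and no filter gave 2915 risen and 2376 higher interactions. Leaving out 1 library gave 1106 to 1541 risen, 1908 to 2667 fallen, 1122 to 1638 higher and 1140 to 1886 lower interactions; the lowest of the last, 1140, was without heated control replicate 1. With the replicate block the counts were 1583 risen, 2706 fallen, 1716 higher and 2135 lower interactions. Deviations from the group means of same-numbered libraries correlated at -0.038 and -0.081 (control unheated and heated), -0.068, 0.128 and 0.147 (YAP/TAZ siRNA unheated and heated), 0.047, -0.032 and 0.057 (unheated of both siRNAs) and 0.140 and 0.098 (heated of both), so they are treated as sharing only a number.

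Each alternative for a named gene was judged from 1 fit, on FPKM as deposited unless the alternative was itself a scaling. Whether the call under all 3 scalings held in each was not checked. Of 5188 alternatives for 249 named genes that rose or fell, 5119 kept an adjusted p under 0.05 with the same sign. In 69 this was lost and 0 reversed, and 26 genes lost it at least once, 18 of them without heated replicate 1. Over the left-out libraries, the list medians relative to all genes that changed sign ran up to 0.183 (phosphatases), 0.0661 (noncoding RNAs), 0.0465 (splicing), 0.225 (YAP/TAZ targets) and 0.0408 (Hippo), and down to -0.0851 (mitochondrial ribosome). Under quantile normalization they were -0.0536 (endoplasmic reticulum), -0.0958 (splicing) and -0.0257 (actin). Without heated replicate 1 they were -0.0189 (phosphatases), 0.00139 (mitochondrial ribosome), -0.0179 (YAP/TAZ targets) and -0.0366 (Hippo). Without heated replicate 3 they were -0.00893 (noncoding RNAs) and -0.00857 (splicing). Without an unheated replicate they were -0.0554 (Hippo, 1), -0.0705 (noncoding RNAs, 2), -0.0159 (Hippo, 2), -0.0689 (YAP/TAZ targets, 3) and -0.0642 (Hippo, 3). Gene classes that changed sign were those of 5 to 10 exons (0.00314 median-of-ratios, 0.000742 quantile), of 10 to 100 FPKM (0.0155 median-of-ratios), of over 100 FPKM (-0.0287 quantile) and with AP-1 letters (4.43e-05 quantile). The cause of these changes was not tested. Only 2 heated libraries limit every estimate.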

Other observations

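Of 13 clock genes, 6 rose and 1 fell, of which 1 risen gene passed the filter only through the heated libraries and the fallen one only through the unheated ones. Nfil3, a repressor of D-box promoters, went from 2.27, 2.08 and 2.35 FPKM to 7.21 and 7.01 FPKM (log2 change 1.33). Of 25 lysosome genes, 9 rose and 2 fell, and 1 of the 9 passed the filter only through the heated libraries. The cathepsin gene Ctsb was at 0.50 and the sialidase gene Neu1 at -0.53. The siRNA targets Yap1 (-0.10) and Wwtr1 (0.06) were not called after heat in control cells. Yap1 was at 7.26, 5.79 and 15.6 FPKM without heat and at 10.9 and 5.96 FPKM after it, so its groups overlapped. Of 17 YAP/TAZ target genes, 5 rose and 3 fell, against 12.5% and 21.8% of all genes.

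The gene Gm48565 (chromosome 9, 40820969 to 40822673), 10.9 kb past the end of Hspa8 on the same strand, was chosen after its values were seen. It was at 0 FPKM in each unheated library and at 9.98 and 7.75 FPKM after heat.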
